A study of Mus musculus with 18 samples.

Results

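Transcripts of 9 small leucine-rich proteoglycans, Dcn, Bgn, Aspn, Fmod, Lum, Prelp, Kera, Omd and Ogn, were followed across 18 arrays of immortalized mouse embryonic fibroblast (MEF) cells. They were 9 of 19938 gene symbols on the array, each read from a single probe set annotated to that symbol alone. The family was chosen by the measured signals of Dcn and Fmod, which were lower in the knockdown cells, so differences between knockdown and control cells are given below as a description with no test. All cells were MEF cells of ICR mice infected with adenovirus for 2 h and then kept in normal medium for 70 h. SCR cells had received a virus expressing scrambled RNA, HSF1-KD cells a virus expressing a short hairpin RNA against heat shock factor 1 (HSF1), the main transcription factor of the heat shock response, and SSBP1-KD cells one against SSBP1, the mitochondrial single-stranded DNA-binding protein that the study examined as a partner of HSF1. The heat shock was 1 h at 42 °C (HS), the matched control cells remained at 37 °C (Cont), and 200 ng of total RNA per sample was measured on 3 arrays per group. The labels do not say whether the 3 samples of a group came from separate cultures, and p-values therefore measure the spread between these samples only. The cells are a line in culture, and a knockdown is meant to lower a transcript without deleting its gene.

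Small leucine-rich proteoglycans are secreted proteins whose curved core of leucine-rich repeats binds collagen, and most of them carry sugar chains of the chondroitin, dermatan or keratan sulfate type. In connective tissue they set the thickness and spacing of collagen fibrils, and several also bind growth factors or their receptors. They are grouped by sequence into classes: decorin (Dcn), biglycan (Bgn) and asporin (Aspn) form class I, fibromodulin (Fmod), lumican (Lum), PRELP (Prelp), keratocan (Kera) and osteomodulin (Omd) class II, and osteoglycin (Ogn) belongs to class III. Fibroblasts are a major source of decorin and biglycan, whereas keratocan is best known from the cornea and osteomodulin from bone.

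Values are log2 signals, on which a difference of 1 is a change by a factor of 2, and levels are compared only within a gene. Array medians ran from 7.88 to 7.94, and the weakest correlation within any group was 0.985. The array SSBP1-KD Cont replicate 1 stood apart, with a mean absolute residual of 0.152 against 0.0700 to 0.110 on the other 17 arrays, and comparisons with SSBP1-KD Cont were repeated without it. Of the targeted transcripts, Hsf1 was not analysed here because no probe set carried that symbol alone. The brighter of the 2 probe sets of Ssbp1 was lower in SSBP1-KD cells by 0.41 ± 0.08 (SE) in HS at an adjusted p of 0.00155, and its difference in Cont was -0.22 ± 0.08 at an adjusted p of 0.0555 by limma. The other Ssbp1 probe set differed by -0.07 in Cont (limma adjusted p = 0.513) and by -0.03 in HS (limma adjusted p = 0.826). The paper examined HSF1 and SSBP1 protein in knockdown MEF cells by western blotting, whereas the arrays measure RNA only.

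The mean signal over all arrays of Bgn lay at percentile 98.7 of all 35557 probe sets, that of Dcn at percentile 97.4, that of Fmod at 67.4 and that of Ogn at 50.04. Prelp stood at percentile 42.5. The probe sets of Omd (17.0), Kera (15.6), Aspn (13.6) and Lum (7.84) were among the dimmest, where an array separates signal from background poorly. The range of the 6 group means was 2.10 for Fmod, 1.87 for Ogn, 1.03 for Dcn and 0.56 for Bgn. It was 0.43 for Aspn, 0.36 for Omd, 0.30 for Lum, 0.22 for Kera and 0.19 for Prelp. Among all symbols these ranges fell at percentiles 99.9 for Fmod, 99.8 for Ogn, 98.0 for Dcn and 86.1 for Bgn. They fell at 75.4 for Aspn, 65.7 for Omd, 54.7 for Lum, 35.4 for Kera and 25.0 for Prelp. Nothing is read from the high percentiles of Dcn and Fmod, because their lower values in knockdown cells chose the family.

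**Figure D1:**
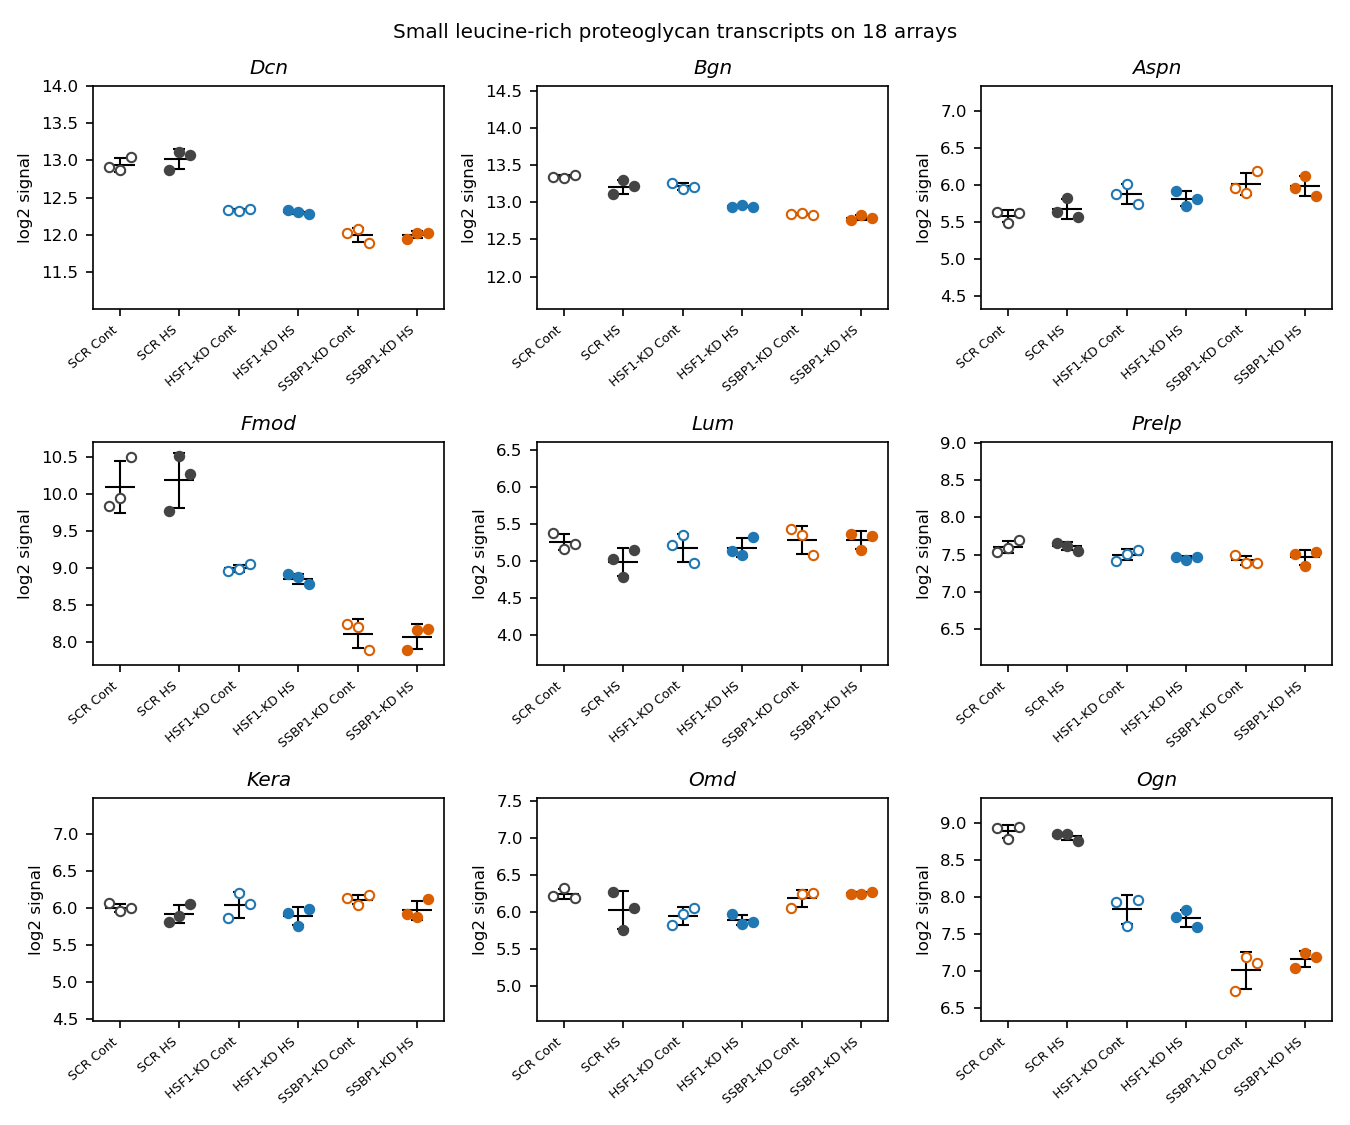
Log2 signal (vertical axis, a window of 3 log2 units in every panel) of each of the 9 genes on the 18 arrays; points are arrays (open, 37 °C; filled, 42 °C for 1 h), horizontal bars are means of 3 arrays and whiskers their SD. Dcn, Fmod and Ogn step down from SCR to HSF1-KD to SSBP1-KD, with Ogn at 8.89 in SCR Cont and 7.01 in SSBP1-KD Cont, while Lum, Prelp and Kera stay within 0.30 between group means.

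Decorin, the class I member that binds type I collagen and transforming growth factor β, was lower in both kinds of knockdown cell. The 3 arrays read 12.92, 12.87 and 13.05 in SCR Cont, 12.34, 12.32 and 12.34 in HSF1-KD Cont, and 12.02, 12.08 and 11.89 in SSBP1-KD Cont. After heat shock they read 12.87, 13.12 and 13.07 in SCR, 12.33, 12.30 and 12.28 in HSF1-KD, and 11.95, 12.03 and 12.02 in SSBP1-KD. Every SCR array lay above every HSF1-KD array and every HSF1-KD array above every SSBP1-KD array, at either temperature, while Cont and HS arrays of the same kind of cell overlapped. Dcn was thus 1.53-fold lower than in SCR in HSF1-KD Cont (log2 difference -0.61 ± 0.07, SE, n = 3 per group) and 1.64-fold lower in HSF1-KD HS (-0.72 ± 0.07). In SSBP1-KD the level was 1.93-fold lower in Cont (-0.95 ± 0.07) and 2.03-fold lower in HS (-1.02 ± 0.07). Fewer cells that make a transcript and less of it per cell cannot be told apart in RNA of whole cultures, here and for every gene below.

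Fibromodulin, a keratan sulfate-bearing class II member that shares a collagen-binding role with lumican, had the widest differences of the 9 genes. In Cont the arrays read 9.84, 9.95 and 10.50 in SCR, 8.95, 8.98 and 9.05 in HSF1-KD, and 8.25, 8.21 and 7.90 in SSBP1-KD. In HS they read 9.77, 10.51 and 10.27 in SCR, 8.91, 8.88 and 8.78 in HSF1-KD, and 7.89, 8.17 and 8.17 in SSBP1-KD. The 3 kinds of cell did not overlap at either temperature, and Cont overlapped HS except in HSF1-KD, although SCR arrays of 1 group spread more widely (SD 0.35 in Cont and 0.37 in HS) than HSF1-KD arrays (0.0486 and 0.0673). The log2 difference from SCR was -1.10 ± 0.18 in HSF1-KD Cont (2.15-fold lower) and -1.32 ± 0.18 in HSF1-KD HS (2.50-fold lower). It was -1.98 ± 0.18 in SSBP1-KD Cont (3.94-fold lower) and -2.10 ± 0.18 in SSBP1-KD HS (4.30-fold lower). The SCR arrays with the highest Fmod, replicate 3 in Cont and replicate 2 in HS, were also those with the highest Dcn and Bgn of their groups.

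Osteoglycin, a class III member first studied as a bone-associated factor, was lower in both knockdowns as well. Its values too are a description, since the members were chosen with earlier results of these data known. Its arrays read 8.93, 8.79 and 8.94 in SCR Cont, 7.93, 7.61 and 7.96 in HSF1-KD Cont, and 6.73, 7.19 and 7.11 in SSBP1-KD Cont. In HS the values were 8.85, 8.85 and 8.76 in SCR, 7.74, 7.82 and 7.59 in HSF1-KD, and 7.05, 7.25 and 7.20 in SSBP1-KD. Again no array of 1 kind of cell overlapped another at the same temperature, Cont and HS overlapped within each kind, and the lowest value belonged to SSBP1-KD Cont replicate 1. Ogn was 2.07-fold lower in HSF1-KD Cont (-1.05 ± 0.12) and 2.14-fold lower in HSF1-KD HS (-1.10 ± 0.12). In SSBP1-KD it was 3.66-fold lower in Cont (-1.87 ± 0.12; -1.73 without replicate 1) and 3.14-fold lower in HS (-1.65 ± 0.12).

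Biglycan, the closest relative of decorin and a ligand of Toll-like receptors, showed a smaller step in the same order. Its signals in Cont were 13.34, 13.33 and 13.38 in SCR, 13.26, 13.18 and 13.21 in HSF1-KD, and 12.85, 12.86 and 12.83 in SSBP1-KD. In HS they were 13.11, 13.30 and 13.22 in SCR, 12.94, 12.97 and 12.94 in HSF1-KD, and 12.76, 12.83 and 12.78 in SSBP1-KD. Groups at the same temperature did not overlap, but SCR HS overlapped HSF1-KD Cont. The difference from SCR was -0.13 ± 0.05 in HSF1-KD Cont, -0.26 ± 0.05 in HSF1-KD HS, -0.50 ± 0.05 in SSBP1-KD Cont and -0.42 ± 0.05 in SSBP1-KD HS. In fold terms Bgn in SSBP1-KD was 1.42-fold lower in Cont and 1.34-fold lower in HS. The difference in HSF1-KD Cont was -0.06 when the arrays were quantile-normalized again.

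**Figure D2:**
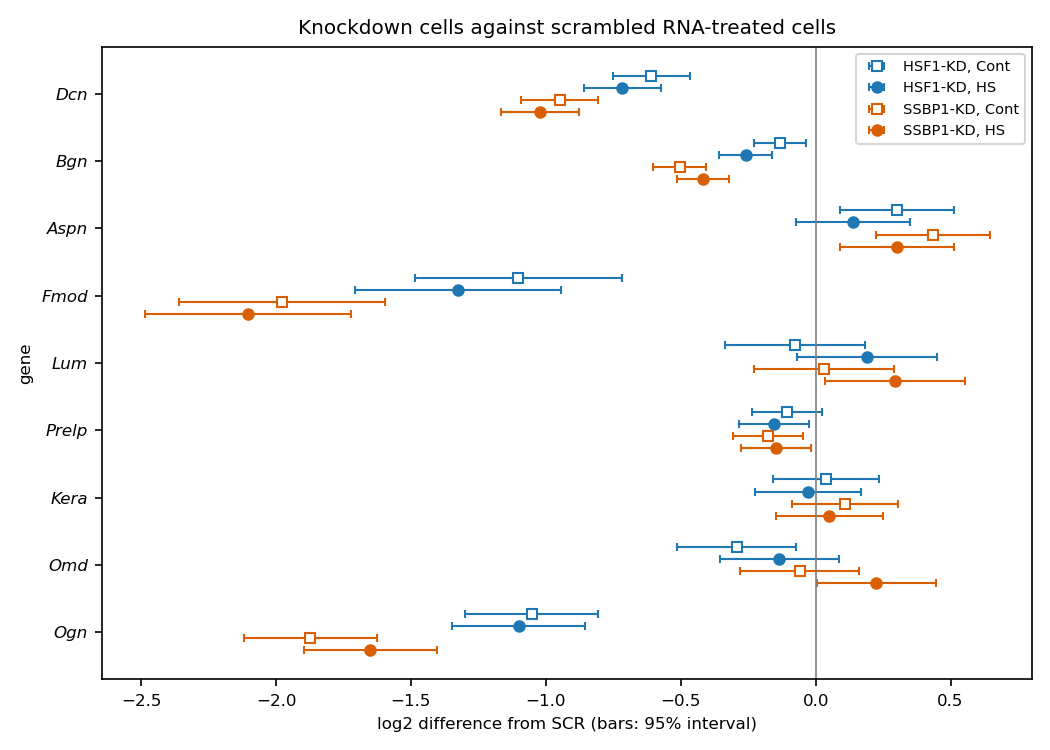
Log2 difference from SCR (horizontal axis) for the 9 genes in HSF1-KD and SSBP1-KD cells at 37 °C (squares) and 42 °C (circles). Bars are 95% intervals of the fit over all arrays. They are a description of spread and no test, because these comparisons chose the family. Fmod, Ogn and Dcn lie farthest to the left, from -2.10 for Fmod in SSBP1-KD HS to -0.61 for Dcn in HSF1-KD Cont, and Aspn lies to the right of 0 in all 4 comparisons.

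The other members moved little or the other way. Asporin, the class I member that usually lacks a sugar chain, read 5.64, 5.48 and 5.62 in SCR Cont, 5.88, 6.02 and 5.74 in HSF1-KD Cont, and 5.96, 5.89 and 6.18 in SSBP1-KD Cont. Both knockdown groups lay above SCR in Cont, by 0.30 ± 0.10 in HSF1-KD and by 0.43 ± 0.10 in SSBP1-KD. In HS the arrays of SCR (5.64, 5.83 and 5.57) overlapped those of HSF1-KD (5.92, 5.71 and 5.82) and not those of SSBP1-KD (5.96, 6.12 and 5.86), with differences of 0.14 ± 0.10 and 0.30 ± 0.10.

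Omd, the bone-associated class II member, read 6.22, 6.32 and 6.20 in SCR Cont and 5.82, 5.98 and 6.06 in HSF1-KD Cont, with no overlap. Its difference was -0.29 ± 0.10 there and -0.06 ± 0.10 in SSBP1-KD Cont, whose arrays read 6.05, 6.25 and 6.26. In HS Omd differed from SCR by -0.14 ± 0.10 in HSF1-KD and by 0.22 ± 0.10 in SSBP1-KD, and both groups overlapped SCR. Prelp, which links basement membranes to collagen, was between 7.34 and 7.69 on all arrays. Its differences ran from -0.18 ± 0.06 in SSBP1-KD Cont to -0.11 ± 0.06 in HSF1-KD Cont, and its arrays overlapped SCR in the latter only.

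Lum and Kera, the corneal keratan sulfate proteoglycans, showed no order of the kinds of cell. Lum lay between 4.78 and 5.43 on the 18 arrays, and its differences from SCR were -0.08 and 0.19 in HSF1-KD Cont and HS and 0.03 and 0.29 in SSBP1-KD Cont and HS, each with an SE of 0.12. Kera lay between 5.76 and 6.21, and its differences were 0.04, -0.03, 0.11 and 0.05 in the same order, each with an SE of 0.09. Both genes overlapped SCR in all 4 comparisons.

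Without SSBP1-KD Cont replicate 1 the differences of SSBP1-KD from SCR in Cont were -0.96 for Dcn, -2.04 for Fmod, -1.73 for Ogn, -0.51 for Bgn, 0.46 for Aspn, -0.21 for Prelp and 0.10 for Kera. Those of Omd (0.01) and Lum (-0.04), both close to 0, changed sign.

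By arrays that did not overlap, 5 of the 9 genes were lower than SCR in each of the 4 comparisons. They were Dcn, Bgn, Fmod and Ogn with Omd in HSF1-KD Cont, and the same 4 with Prelp in the other 3 comparisons. Over all 19938 symbols the share lower without overlap was 16.9% in HSF1-KD Cont, 16.7% in HSF1-KD HS, 21.3% in SSBP1-KD Cont and 20.7% in SSBP1-KD HS, and nothing is read from the members' counts because these comparisons chose the family. The step from SCR down to HSF1-KD and again down to SSBP1-KD, without overlap at both temperatures, was found for 4 of 9 members and for 1.78% of all symbols (355). Nothing is read from this count either, because Dcn and Fmod, whose lower values chose the family, are among the 4. The median difference of the 9 genes ran from -0.18 to -0.13 over the 4 comparisons, and that of all symbols from 0.03 to 0.05.

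Members that lie next to each other in the genome differed in the range of their group means. In the RefSeq gene table of mouse assembly GRCm38.p6, Dcn, Lum and Kera are neighbours on chromosome 10, Aspn, Omd and Ogn on chromosome 13, and Prelp and Fmod on chromosome 1, with Bgn on X. Within each of the 3 clusters the gene with the widest range of group means (Dcn, Ogn and Fmod) stood beside genes whose range was 0.43 or less. Of these, Lum, Kera, Aspn and Omd were dim, at percentiles 7.84 to 17.0, where a small difference may be hidden by background. Aspn was nevertheless higher than SCR without overlap in HSF1-KD Cont (0.30), SSBP1-KD Cont (0.43) and SSBP1-KD HS (0.30). Omd was lower without overlap in HSF1-KD Cont (-0.29) and overlapped SCR in the other comparisons. Prelp, beside Fmod, was lower than SCR in every comparison, with differences from -0.18 to -0.11. Whether neighbours are regulated together was not tested.

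Promoter sequence is shown for the members that stepped down together and have an entry in the RefSeq promoter table of GRCm38.p6, which holds 7 of the 9 genes and neither Dcn nor Lum. Each sequence is the 250 bases before the annotated start, 5′ to 3′ on the gene's strand (the + strand for these 3), and capitals mark matches to any of the motifs searched on both strands.
Fmod, chr1:134037004-134037253: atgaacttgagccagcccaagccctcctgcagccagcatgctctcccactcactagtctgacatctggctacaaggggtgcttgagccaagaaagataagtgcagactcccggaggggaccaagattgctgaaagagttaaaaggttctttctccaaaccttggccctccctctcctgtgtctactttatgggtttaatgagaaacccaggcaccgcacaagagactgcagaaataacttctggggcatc
Ogn, chr13:49607765-49608014: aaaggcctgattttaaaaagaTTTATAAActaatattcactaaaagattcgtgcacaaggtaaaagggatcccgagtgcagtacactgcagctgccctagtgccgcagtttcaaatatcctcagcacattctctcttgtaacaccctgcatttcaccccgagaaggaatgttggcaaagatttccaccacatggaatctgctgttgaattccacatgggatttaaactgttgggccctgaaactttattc
Bgn, chrX:73483351-73483600: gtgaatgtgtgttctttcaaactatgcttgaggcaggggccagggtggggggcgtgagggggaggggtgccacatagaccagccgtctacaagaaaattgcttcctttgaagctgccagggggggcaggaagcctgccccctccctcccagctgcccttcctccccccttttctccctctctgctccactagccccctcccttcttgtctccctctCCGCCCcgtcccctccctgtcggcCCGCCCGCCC
The motifs were a heat shock element read head to head (GAANNTTC, present in 6.69% of 32851 promoter windows of this length) or tail to tail (TTCNNGAA, 7.17%), the AP-1 site (TGANTCA, 6.75%), the TATA box (TATAAA, 12.4%), the GC box (GGGCGG, 32.7%) and the CCAAT box (CCAAT, 33.8%). The Fmod window, with a GC content of 51.2%, held no match. The Ogn window (42% GC) held the TATA letters on both strands at bases -229 to -222 from the start, where the matches overlap. The Bgn window was GC-rich (64.4%) and held 3 GC boxes, at bases -34 to -29, -10 to -5 and -6 to -1, of which the last 2 overlap. The letters of the heat shock element and of the AP-1 site were in none of the 7 windows, which says nothing of sites elsewhere or of binding.

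A comparison of SSBP1-KD with HSF1-KD uses no SCR array and was tested, although it shares the knockdown arrays with the comparisons that chose the family. All arrays of the 6 groups were fitted with limma over all probe sets, and a gene was called at an adjusted p under 0.05 after Benjamini-Hochberg adjustment. In Cont, 4 of the 9 members were lower in SSBP1-KD and none was higher, where 29.4% of all symbols were called in either direction. Fmod was lower by a factor of 1.84 (log2 difference -0.88 ± 0.18, limma adjusted p = 0.00207). Ogn was lower by 1.77-fold (-0.82 ± 0.12, limma adjusted p = 9.04e-05), Bgn by 1.29-fold (-0.37 ± 0.05, limma adjusted p = 2.61e-05) and Dcn by 1.26-fold (-0.34 ± 0.07, limma adjusted p = 0.00161). Without SSBP1-KD Cont replicate 1 the count stayed at 4, with differences of -0.94, -0.68, -0.37 and -0.35 in the same order. With the methods' t-test the adjusted p of Ogn was 0.0784 and 3 members were called. Of the rest, Omd differed by 0.23 (95% interval 0.01 to 0.45, limma adjusted p = 0.124), and Aspn, Lum, Prelp and Kera by between -0.07 and 0.13.

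In HS, 5 of the 9 members were called, 4 lower and 1 higher in SSBP1-KD, against 25.7% of all symbols. Here too the knockdown arrays are shared with the comparisons that chose the family. Fmod differed by -0.78 ± 0.18 (limma adjusted p = 0.00536), Ogn by -0.55 ± 0.12 (limma adjusted p = 0.00283) and Dcn by -0.31 ± 0.07 (limma adjusted p = 0.00389). Bgn differed by -0.16 ± 0.05 (limma adjusted p = 0.0225). Omd was higher by 0.36 ± 0.10 (limma adjusted p = 0.0214), and its SSBP1-KD arrays (6.24, 6.25 and 6.27) all lay above its HSF1-KD arrays (5.97, 5.84 and 5.87). The Bgn call was lost without HSF1-KD HS replicate 1 (limma adjusted p = 0.0570) or 2 (0.0797) and without SSBP1-KD HS replicate 1 (0.0842) or 3 (0.0653). The Omd call was lost without HSF1-KD HS replicate 2 (limma adjusted p = 0.0779) or 3 (0.0616) and without SSBP1-KD HS replicate 1 (0.0518), 2 (0.0538) or 3 (0.0619). For the members not called, the 95% intervals ran from -0.12 to 0.14 for Prelp, from -0.16 to 0.36 for Lum, from -0.12 to 0.28 for Kera and from -0.05 to 0.38 for Aspn.

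**Figure D3:**
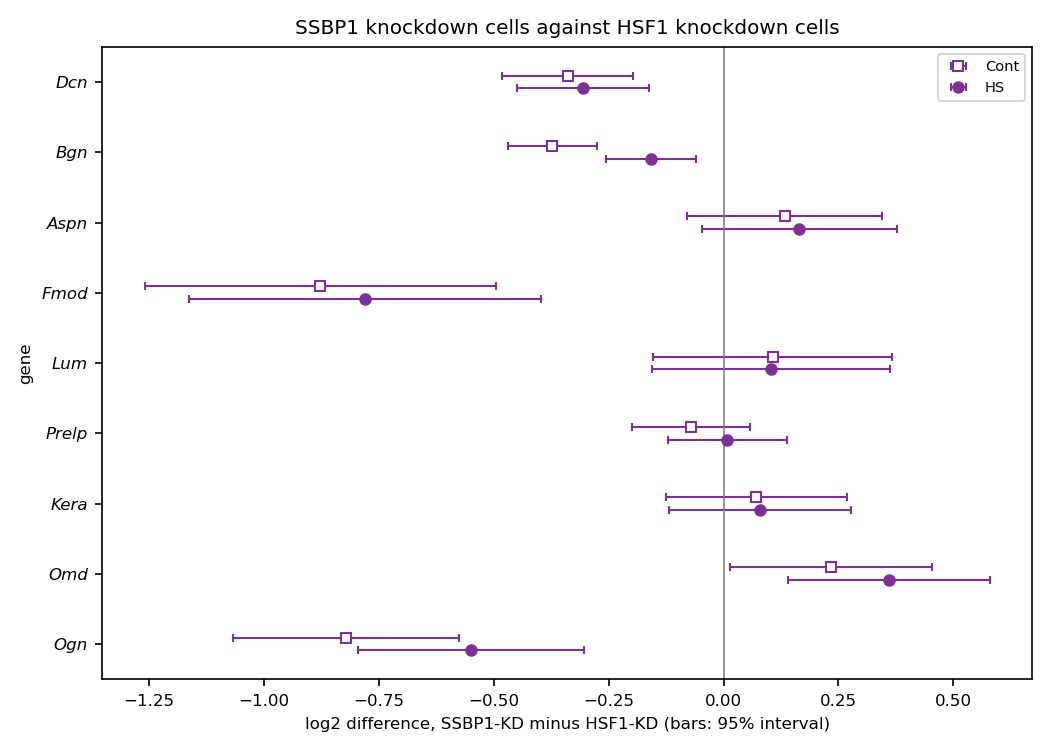
Log2 difference between SSBP1-KD and HSF1-KD cells (horizontal axis) for the 9 genes at 37 °C (squares) and 42 °C (circles); bars are 95% intervals. The intervals of Dcn, Bgn, Fmod and Ogn lie below 0 at both temperatures, and Omd lies above 0, at 0.23 in Cont and 0.36 in HS.

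Few of the 9 transcripts passed the test for a response to 1 h of heat shock. In SCR cells 0 of 9 members were called by limma and 2 had an unadjusted p under 0.05, where 16% of all symbols were called. These 2 were Bgn, with a change of -0.14 ± 0.05 (limma adjusted p = 0.0521, and 0.0171 to 0.230 over the alternatives), and Lum, with -0.27 ± 0.12 (limma adjusted p = 0.174). Bgn was called without SCR HS replicate 2 (-0.18, limma adjusted p = 0.0171), and Omd was called in its place without SCR HS replicate 1, where Bgn changed by -0.09 (limma adjusted p = 0.217). The 95% interval of the heat response in SCR was -0.07 to 0.22 for Dcn, -0.30 to 0.47 for Fmod and -0.31 to 0.18 for Ogn.

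In HSF1-KD cells 1 of 9 members was called, against 21.4% of all symbols. Bgn fell by 0.27 on the log2 scale, to 83.1% of its level in Cont (SE 0.05, limma adjusted p = 0.000812), and its HS arrays (12.94, 12.97 and 12.94) all lay below its Cont arrays. In SSBP1-KD cells 0 of 9 were called and 0 had an unadjusted p under 0.05, against 6.9% of all symbols, and Bgn changed by -0.05 (95% interval -0.15 to 0.04). Without SSBP1-KD Cont replicate 1 the count was again 0, and the estimate of Ogn moved from 0.16 to 0.02. The intervals in HSF1-KD were -0.17 to 0.11 for Dcn, -0.52 to 0.24 for Fmod and -0.36 to 0.13 for Ogn. In SSBP1-KD they were -0.14 to 0.15 for Dcn, -0.42 to 0.34 for Fmod and -0.09 to 0.40 for Ogn.

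The heat responses were not shown to differ between kinds of cell. For HSF1-KD minus SCR, limma called 0 of 9 members with 0 at an unadjusted p under 0.05, against 0.346% of all symbols. For SSBP1-KD minus SCR it called 0 of 9, with 0 at an unadjusted p under 0.05, against 0.492% of all symbols. The difference in heat response of Bgn between HSF1-KD and SCR was -0.13 (95% interval -0.27 to 0.01, limma adjusted p = 0.641). For Fmod the intervals, -0.76 to 0.32 in HSF1-KD and -0.67 to 0.41 in SSBP1-KD, were wide, whereas for Dcn they were -0.31 to 0.10 and -0.28 to 0.13.

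**Figure D4:**
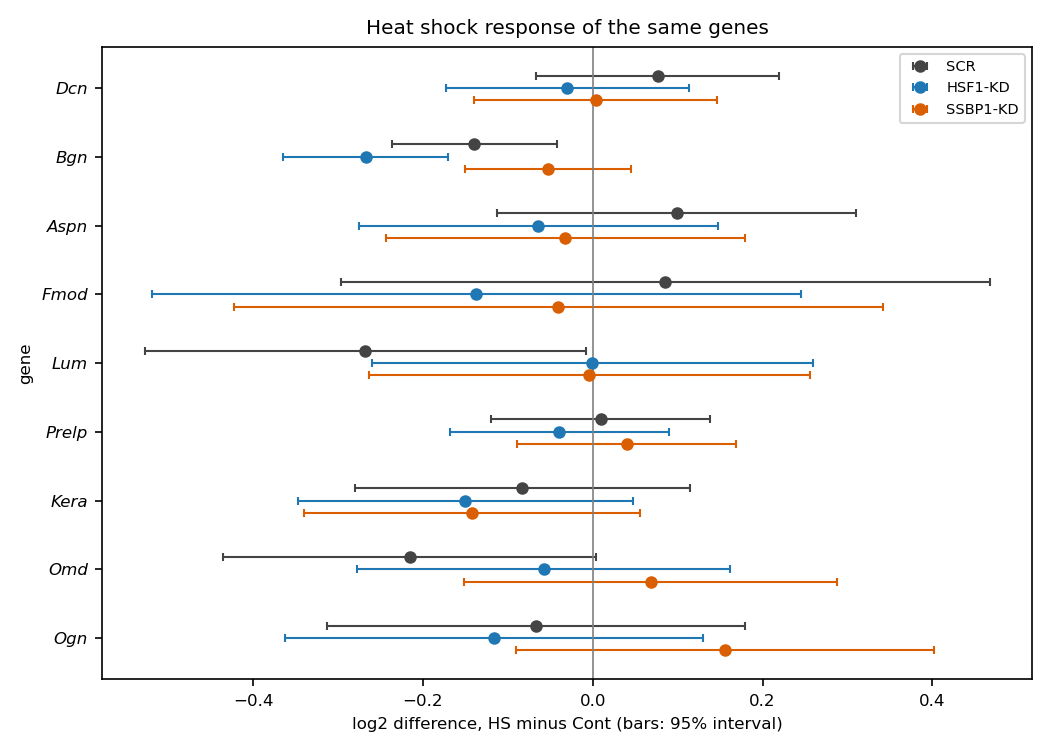
Log2 difference between heat-shocked and control cells (horizontal axis) of the 9 genes in SCR, HSF1-KD and SSBP1-KD cells; bars are 95% intervals. The intervals cross 0 except those of Bgn in SCR (-0.14) and HSF1-KD (-0.27) and of Lum in SCR (-0.27, limma adjusted p = 0.174).

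The profiles of Dcn and Fmod over the 6 groups were compared with those of all symbols outside the family by the root mean square distance between group means, each profile taken relative to its own mean. For Dcn the nearest 4 were Adgrb2, an adhesion G protein-coupled receptor (distance 0.0362), Steap4, a metalloreductase (0.0412), Col4a6, a basement membrane collagen chain (0.050), and Pax8, a transcription factor (0.0563). For Fmod they were Adcyap1r1, the receptor of the neuropeptide PACAP (0.0685), Cd200, a cell surface glycoprotein (0.0965), Igf2, insulin-like growth factor 2 (0.133), and Stk26, a protein kinase (0.170). Within the family, the distance between Fmod and Ogn was 0.135, smaller than that between Fmod and Stk26 and smaller than that between Fmod and Dcn (0.433) or between Dcn and Bgn (0.253). Lum and Kera lay 0.0863 apart, with hardly any profile in either. These distances describe 6 group means and were not tested.

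**Figure D5:**
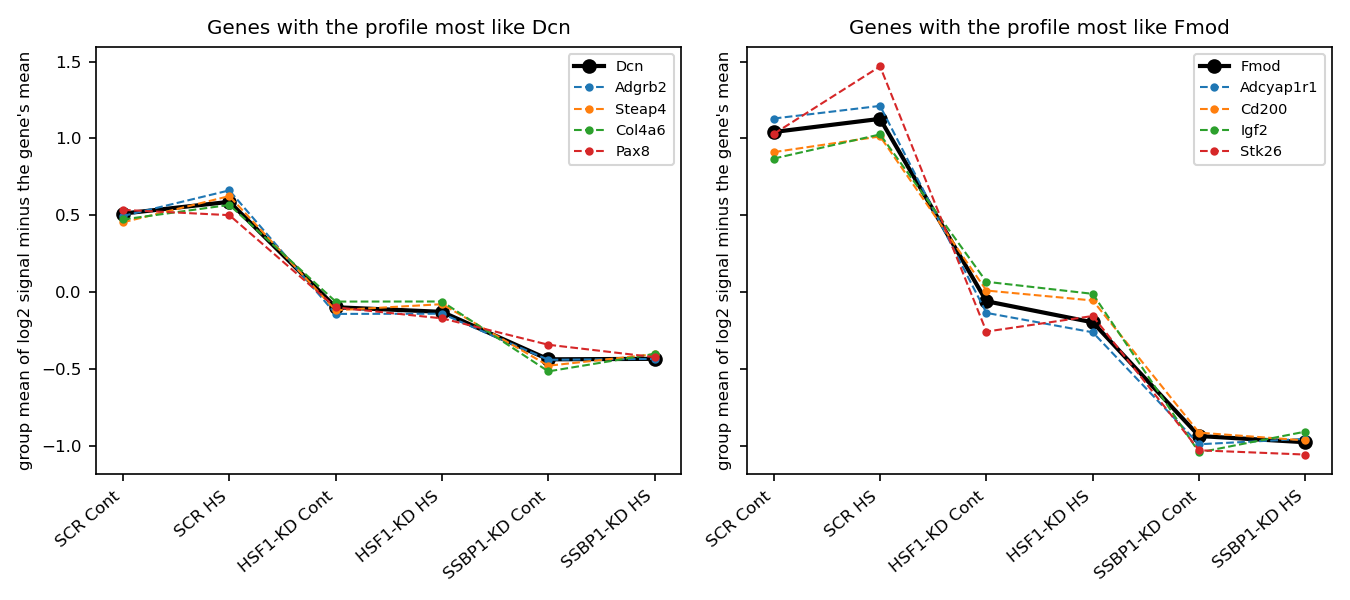
Group means of log2 signal minus each gene's own mean over the 6 groups (vertical axis) for Dcn and Fmod (black) and the 4 symbols outside the family with the smallest distance to each (dashed). Group means of the left panel span 0.96 (Pax8) to 1.10 (Steap4) beside 1.03 for Dcn, and those of the right panel 1.98 (Cd200) to 2.53 (Stk26) beside 2.10 for Fmod.

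Most of the fibroblast markers were lower in the knockdown cells. The markers and the gene lists below were chosen with earlier results of these data known. Nothing is therefore read from a count that exceeds the share of all symbols called. Of 10 such markers, 8 were above the median probe set, and their mean log2 signal was 10.73 to 10.76 in SCR Cont, 10.60 to 10.65 in HSF1-KD Cont and 10.37 to 10.48 in SSBP1-KD Cont. In HS it was 10.69 to 10.74, 10.51 to 10.52 and 10.40 to 10.42. In SSBP1-KD Cont 6 of the 10 were lower and 1 was higher than in SCR, where 31.1% of all symbols were called in either direction, among them Pdgfrb (-0.98) and Pdgfra (-0.72), the receptors of platelet-derived growth factor, whereas vimentin (Vim), the intermediate filament of mesenchymal cells, differed by 0.09 (limma adjusted p = 0.108). The marker higher in SSBP1-KD Cont was Thy1 (0.23). In HSF1-KD Cont 6 were lower and 2 higher, where 21% of all symbols were called. The higher ones were Fap (0.59, a dim probe set at percentile 18.7) and S100a4 (0.28). The part of this shift in the values of Dcn, Fmod and Ogn was not tested.

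Markers of other cell types were read in the same way. Over the 18 arrays the mean log2 signal was 7.83 to 8.12 for 5 epithelial markers, 7.11 to 7.43 for 4 endothelial, 7.16 to 7.59 for 4 macrophage, 8.02 to 8.43 for 5 chondrocyte, 7.001 to 7.38 for 3 osteoblast and 6.92 to 7.09 for 4 adipocyte markers. Array signals have no true 0, so none of these markers can be called absent. The counts that follow stand beside 31.1% of all symbols called in SSBP1-KD Cont and 21% in HSF1-KD Cont. In SSBP1-KD against SCR in Cont, 1 epithelial and 1 osteoblast marker were lower, 1 endothelial, 2 macrophage and 1 chondrocyte marker were higher, and no adipocyte marker was called. In HSF1-KD Cont, 1 epithelial, 1 endothelial and 1 macrophage marker were higher, 1 epithelial, 1 chondrocyte and 1 adipocyte marker were lower, and no osteoblast marker was called. The 3 tendon markers averaged 8.39 to 8.45 in SCR Cont, 8.05 to 8.12 in HSF1-KD Cont and 8.17 to 8.24 in SSBP1-KD Cont, with only Scx, a tendon transcription factor, called (-0.85 in HSF1-KD and -0.49 in SSBP1-KD). The 4 muscle markers averaged 8.60 to 8.69 in SCR Cont, 8.57 to 8.60 in HSF1-KD Cont and 8.83 to 8.91 in SSBP1-KD Cont, and only Acta2, the smooth muscle actin that fibroblasts can also make, was called (-0.51 in HSF1-KD and 0.71 in SSBP1-KD). In SSBP1-KD Cont without replicate 1, 1 macrophage marker was called instead of 2, and the counts of the other 8 marker lists against SCR were the same. Whether these shifts bear on the proteoglycans was not tested.

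More than 1 in 2 genes of a chosen list of collagens were lower in the knockdown cells. Of 12 fibrillar and associated collagen genes, 7 were lower in HSF1-KD and 8 in SSBP1-KD, in Cont and in HS alike, and none was higher. These counts are a description, since the list was chosen with earlier results of these data known. Over all symbols the share called in either direction was 21% in HSF1-KD Cont, 23.7% in HSF1-KD HS, 31.1% in SSBP1-KD Cont and 28.7% in SSBP1-KD HS. In SSBP1-KD Cont the widest differences were those of Col6a2 (-1.17 ± 0.08, limma adjusted p = 2.29e-07) and Col1a2 (-1.08 ± 0.05, limma adjusted p = 2.30e-08), followed by Col6a1 (-0.84) and Col12a1 (-0.80). The list's median was -0.43 there and -0.15 in HSF1-KD Cont, against 0.05 and 0.03 for all symbols. Between SSBP1-KD and HSF1-KD, 7 were lower in Cont, and 6 were lower and 1 (Col12a1, 0.22) was higher in HS. The share of all symbols called there was 29.4% in Cont and 25.7% in HS. With heat shock none of the 12 was called in SCR, 2 fell in HSF1-KD and 1 rose in SSBP1-KD. The shares of all symbols called for heat shock were 16%, 21.4% and 6.9% in the same order. The count in SSBP1-KD Cont was again 8 lower without replicate 1. Col1a1, Col1a2 and Col3a1 of this list are also among the fibroblast markers.

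Growth factors and receptors that bind proteins of this family were mostly lower in SSBP1-KD, in a list also chosen with earlier results of these data known. Of 18 such genes, 12 were lower and 1 was higher in SSBP1-KD Cont, and 10 were lower and 1 was higher in SSBP1-KD HS, against 31.1% and 28.7% of all symbols called. Tgfb3, a transforming growth factor β, differed by -1.09 ± 0.07 in SSBP1-KD Cont. Met (-0.83) and Insr (-0.70), both receptor tyrosine kinases, and the bone morphogenetic protein gene Bmp4 (-0.79) followed. In HSF1-KD 5 were lower and 3 higher in Cont, and 9 lower and 1 higher in HS, against 21% and 23.7%. Heat shock lowered 12 of the 18 in HSF1-KD, lowered 4 and raised 1 in SCR, and was called for none in SSBP1-KD, against 21.4%, 16% and 6.9% of all symbols. Ccn2, a secreted matricellular protein, rose by 0.39 in SCR, and its heat response was the only one of the 18 called as different from SCR in either knockdown (-0.58, limma adjusted p = 0.00684 in HSF1-KD; -0.44, limma adjusted p = 0.0462 in SSBP1-KD). The latter call was lost without SSBP1-KD Cont replicate 1.

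Several enzymes that build the sugar chains of these proteoglycans fell with heat shock. Of 22 genes for chondroitin and dermatan sulfate synthesis, 8 fell in SCR, 11 fell in HSF1-KD, and 2 fell and 1 rose in SSBP1-KD, against 16%, 21.4% and 6.9% of all symbols. The rise in SSBP1-KD was not called without SSBP1-KD Cont replicate 1. Chst12, a chondroitin 4-O-sulfotransferase, fell by 0.84 in SCR, and B3galt6, which adds a galactose of the linker to the core protein, by 0.57. The heat response of Chst12 in SSBP1-KD differed from that in SCR by 0.60 (limma adjusted p = 0.00299). In Cont, 7 of the 22 were lower and 2 higher in SSBP1-KD than in SCR, among them Chst12 (-0.66) and Dse (-0.58), the epimerase that makes dermatan sulfate, and 1 was lower and 1 higher in HSF1-KD. Of 9 keratan sulfate genes, 3 were lower and 2 higher in SSBP1-KD Cont, and 3 were lower and 1 higher in HSF1-KD Cont. For both lists the share over all symbols was 31.1% in SSBP1-KD Cont and 21% in HSF1-KD Cont. Without SSBP1-KD Cont replicate 1, 4 keratan sulfate genes were lower and 1 higher in SSBP1-KD, and the counts for chondroitin and dermatan sulfate against SCR were unchanged. The galactosyltransferase gene B4galt4 was lower in both (-0.62 and -0.56).

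Proteases that process or cleave small leucine-rich proteoglycans went both ways. Of 12 genes, 6 were lower and 3 higher in SSBP1-KD Cont, and 4 were lower and 2 higher in HSF1-KD Cont. The share of all symbols called was 31.1% and 21%, for this and the next 2 lists too. In SSBP1-KD Cont the collagenase gene Mmp13 was higher by 1.21 ± 0.10 (limma adjusted p = 7.88e-07). Adamts5 (-0.99) and Adamts1 (-0.70), both aggrecanases, and the gelatinase gene Mmp2 (-0.95) were lower. Of 18 other matrix and cell surface proteoglycans, 8 were lower and 2 higher in SSBP1-KD Cont, led by the glypican gene Gpc6 (-0.67) and lubricin (Prg4, -0.64), and 4 were lower and 2 higher in HSF1-KD Cont. Of 8 further leucine-rich proteoglycans and relatives measured, among them the neighbours Epyc, Optc and Ecm2, 1 was lower in SSBP1-KD Cont (Podnl1, -0.31 ± 0.07, limma adjusted p = 0.00468) and 1 was higher in HSF1-KD Cont (Ecm2, 0.29 ± 0.09, limma adjusted p = 0.0472). Without SSBP1-KD Cont replicate 1, 6 proteases were lower and 2 higher, 8 other proteoglycans were lower and 0 higher, and 2 further leucine-rich proteoglycans were lower and 1 higher, where 28.6% of all symbols were called.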

How the data were processed

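RNA of 18 samples in 6 groups of MEF cells was hybridized to Affymetrix Mouse Gene ST arrays. The authors deposited a single table of background-corrected, normalized log2 values, with probe sets in rows and arrays in columns. The submitters' processing notes name RMA and Partek 6.5; further settings are not given in the sources used here. Every column matched a sample. Of 35557 probe sets, 21789 carried 1 gene symbol, and a symbol was read from its brightest probe set. Fits used limma 3.58.1 (R 4.3.3) on all probe sets and arrays (lmFit and eBayes, 1 mean per group, 12 residual degrees of freedom), with Benjamini-Hochberg adjustment over all probe sets. The fit was tested on simulated data. The members, gene lists and markers were chosen with earlier results of these data known. All 9 members are named, along with up to 4 genes per list with the largest called differences. The 4 symbols outside the family nearest to Dcn and to Fmod are named too. Vim, Pdgfra, Pdgfrb, Thy1, Fap, S100a4, Acta2, Scx and, in HS, Col12a1 were named after their values were seen. Alternatives were other normalizations, filters, priors, array weights, a fit on the compared arrays, a replicate block, the methods' t-test and each array left out. Arrays carry no read depth. Members and gene lists were also read without SSBP1-KD Cont replicate 1, an alternative chosen after seeing the data. Plots used matplotlib 3.10.9 under Python 3.11.15.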

Additional observations from a re-analysis of the deposited data

How the results depend on the processing

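Under 27 alternatives, 9 other settings and 18 that left out 1 array each, the 432 values of Dcn, Bgn, Fmod and Ogn against SCR all stayed below 0. Nothing is read from this sign, because these comparisons chose the family. Many of the values also could not move, since alternatives such as the t-test and the replicate block leave a difference of group means unchanged. The difference of Fmod ran from -1.23 to -0.90 in HSF1-KD Cont and from -2.11 to -1.78 in SSBP1-KD Cont. The number of members called for heat shock in SCR was 1 (Bgn) in place of 0 with array medians set to 1 value, when dimmer probe sets were dropped, with probe sets of 1 symbol only, with a trended and robust prior and with array weights, and ranged from 0 to 1 when an array was left out (Omd without SCR HS replicate 1, Bgn without replicate 2). For SSBP1-KD minus HSF1-KD in HS it ranged from 3 to 5 when an array was left out (3 without HSF1-KD HS replicate 2 or SSBP1-KD HS replicate 1 or 3, against 5). In this comparison Bgn also lost its call with array medians set to 1 value (limma adjusted p = 0.0617) and in a fit of the compared arrays (0.0532), over a range of 0.00577 to 0.0842. The cause was not tested. With the replicate block, 4 members were called for SSBP1-KD minus HSF1-KD in Cont and 5 in HS, and no other call changed. Residual correlations of the 45 same-number pairs ran from -0.276 to 0.171 with 6 above 0.1. For 6 of 18 arrays the closest array of another group shared its number. No pairing by replicate number was seen in these values, which cannot show whether same-numbered samples were handled together. With the methods' t-test, 4 members in Cont and 5 in HS differed between the knockdowns at an unadjusted p under 0.05, and 3 and 5 after adjustment. Each member has a single probe set, so the choice of probe set changed nothing. Only Dcn, Bgn, Fmod and Ogn were in the brighter part, and for the dim probe sets of Aspn, Lum, Kera and Omd a small difference may be hidden by background.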
